A study of Mus musculus with 14 samples.

Results

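Wide domains of the histone mark H3K27me3 were taken from the scr cells of a mouse cell line and followed in cells overexpressing the microRNA miR-93-5p. A wide domain was a deposited scr H3K27me3 peak of at least 4000 bp that shared no base with an scr H3K4me3 peak. There were 1119 such domains among 44412 scr H3K27me3 peaks, which is 2.52% of the peaks and 10.7% of their length. Of 1194 scr peaks that wide, 75 touched an scr H3K4me3 peak and were left out.

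The cells are called LEPC in the labels, with strain C57BL/6 and 3 passages, and were grown in serum-containing medium. Chromatin immunoprecipitation followed by sequencing was done in 2 conditions, overexpression of miR-93-5p and a control labelled scr, for H3K4me3, H3K27me3 and H3K9me3. RNA-seq, and sequencing of mRNAs recovered with the microRNA, here called the pulldown, had a further condition, in which the overexpressed miR-93-5p was mutated, here called mutant. Each assay had 1 library per condition, so no value has a replicate error, no test between conditions could be made, and every difference is one between libraries. The labels do not give the vector, the overexpression level or the number of clones. Of the epithelial markers, Krt8, Krt18, Sox9 and Spp1 were matched in all 3 RNA-seq libraries, Krt7 was not matched in miR-93-5p, Krt19 not in scr, and Epcam in scr alone, at 0.84 FPKM. Krt8 was at 230 FPKM in miR-93-5p, 283 in mutant and 658 in scr cells, and Krt18 at 200, 253 and 306 FPKM in the same order. Spp1 was at 1080 FPKM in miR-93-5p, 1080 in mutant and 531 in scr cells, and Sox9 at 11.1, 6.91 and 8.22 FPKM in the same order. Hnf4a, a transcription factor of hepatocytes, was at 7.22 FPKM in miR-93-5p, 27.4 in mutant and 40.6 in scr cells. The hepatocyte markers Alb and Ttr were not matched in miR-93-5p. Alb was at 1.08 FPKM in mutant and 1.3 in scr cells, and Ttr at 2.04 and 0.969 FPKM. Apoa1 had no matched locus in any library. The endothelial markers Pecam1, Cdh5 and Kdr and the leukocyte markers Ptprc and Cd3e had no matched RNA-seq locus in any of the 3 libraries, and neither had the mesenchymal markers Col1a1, Col1a2, Pdgfrb and Des. Csf1r, a receptor of macrophages, was at 1.16 FPKM in miR-93-5p, 1.82 in mutant and 7.63 in scr cells.

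H3K27me3 is placed by Polycomb repressive complex 2 (PRC2), whose catalytic subunit is usually Ezh2 and whose other core subunits are Eed and Suz12. The mark is found at genes that a cell keeps silent, such as regulators of other lineages, and in broad stretches it can extend far beyond a promoter. H3K4me3 marks the starts of active or poised genes, and H3K9me3 marks another, Polycomb-independent kind of silent chromatin. miR-93-5p, like other microRNAs, represses mRNAs whose sequence pairs with its seed.

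The mature microRNA is shown first because it is the agent overexpressed. Its sequence is from RefSeq (GRCm38.p6, chr5:138165574-138165596, minus strand), with the seed, bases 2 to 8, in capitals.

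mmu-miR-93-5p: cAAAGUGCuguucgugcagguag

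The widest domains that held the start of a gene were those at Kcng4, Tex33, Sox8 and Kcnn1. Their promoters are shown because they differ in how many CG dinucleotides they hold. The rule did not use this feature directly, but its exclusion of H3K4me3 bears on it, as given below. Each runs from 250 bases before to 50 bases after the RefSeq start in GRCm38.p6, was matched by gene symbol, lies on the minus strand and is written 5′ to 3′ with each CG in capitals. Positions are chr8:119635631-119635930 for Kcng4, chr15:78395863-78396162 for Tex33, chr17:25570637-25570936 for Sox8 and chr8:70863209-70863508 for Kcnn1. All other coordinates in the text are mm9.

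Kcng4 promoter: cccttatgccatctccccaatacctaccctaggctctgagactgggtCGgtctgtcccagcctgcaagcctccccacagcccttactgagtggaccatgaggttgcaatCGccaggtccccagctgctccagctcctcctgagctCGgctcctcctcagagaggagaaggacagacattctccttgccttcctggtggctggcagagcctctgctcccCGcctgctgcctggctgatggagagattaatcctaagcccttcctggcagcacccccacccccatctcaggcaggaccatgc
Tex33 promoter: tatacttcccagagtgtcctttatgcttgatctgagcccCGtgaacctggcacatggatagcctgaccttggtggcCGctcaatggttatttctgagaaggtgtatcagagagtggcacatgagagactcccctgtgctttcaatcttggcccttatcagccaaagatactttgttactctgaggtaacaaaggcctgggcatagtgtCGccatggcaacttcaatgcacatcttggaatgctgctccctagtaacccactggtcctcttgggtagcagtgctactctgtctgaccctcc
Sox8 promoter: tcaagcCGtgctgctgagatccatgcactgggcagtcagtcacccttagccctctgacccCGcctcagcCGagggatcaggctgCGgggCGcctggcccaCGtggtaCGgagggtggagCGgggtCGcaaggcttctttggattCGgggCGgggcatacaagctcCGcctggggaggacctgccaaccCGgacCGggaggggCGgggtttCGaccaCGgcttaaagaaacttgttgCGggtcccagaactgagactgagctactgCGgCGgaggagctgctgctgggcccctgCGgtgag
Kcnn1 promoter: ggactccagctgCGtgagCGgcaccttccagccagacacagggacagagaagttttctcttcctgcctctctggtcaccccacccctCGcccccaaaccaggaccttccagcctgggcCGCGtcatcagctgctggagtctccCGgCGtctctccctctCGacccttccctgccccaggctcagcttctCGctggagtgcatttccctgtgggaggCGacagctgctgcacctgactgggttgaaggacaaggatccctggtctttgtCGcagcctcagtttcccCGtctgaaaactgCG

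The Kcng4 promoter held 4 CG and the Tex33 promoter 3, at 0.15 and 0.158 of the number that their C and G content predicts. The Sox8 promoter held 21 CG, 0.647 of the predicted number, and the Kcnn1 promoter 13, at 0.462. A promoter was counted as CG-rich when at least 50% of its 300 bases were C or G and at least 0.6 of the predicted CG were there. CG was searched on the printed strand and reads the same on the other. Of 111 genes whose start lay in a wide domain, 26 (23.4%) had a CG-rich promoter, with a median of 8 CG. Of 897 genes whose start lay in a narrower scr H3K27me3 peak the share was 35.6%, of 7618 with their start in an scr H3K4me3 peak 76.5%, and of all 14787 genes with a promoter sequence 49.3%. Most starts inside wide domains were thus CG-poor. The rule kept out peaks that touch H3K4me3, which was itself found mostly at CG-rich starts.

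The width that chose the domains is given as a description. Wide domains measured 4000 to 22511 bp, with a median of 5191 bp, and 633 were at least 5000 bp, 113 at least 8000 bp and 37 at least 10000 bp wide. Just inside the limit were peaks of 4000 bp in Kif19a, 4001 bp near Tekt1 and 4002 bp near Sbk1, which held 0, 3 and 1 miR-93-5p H3K27me3 peaks. Just outside it were peaks of 3996 bp near Slc4a5, 3999 bp in Elfn2 and 3999 bp near Nfam1, which held 0, 2 and 2. The deposited score of the domains in scr, whose meaning is not given, had a median of 452.17, against 75.65 for narrower scr peaks.

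Most wide domains still held H3K27me3 peaks in miR-93-5p cells, but these were called as short pieces. At least 1 miR-93-5p H3K27me3 peak lay in 1032 of the 1119 domains, which is 92.2% (95% exact binomial interval 90.5% to 93.7%, counting error over regions only), against 34.0% of all scr H3K27me3 peaks and 32.4% of those under 4000 bp. Together the miR-93-5p peaks covered 2.45 Mb of the 6.44 Mb of wide domains, or 38.1%. The covered share was 20.0% over all scr H3K27me3 peaks and 17.7% over the narrower ones. A longer region has more room for a peak to fall in, so the share with a peak depends on width while the covered share is per base.

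The whole miR-93-5p H3K27me3 list was narrower, in and out of the domains. It held 43501 peaks with a median width of 473 bp and a total of 23.7 Mb, against 44412 peaks, 1049 bp and 60.0 Mb in scr. Its widest peak was 4929 bp, against 22511 bp in scr, and 7 of its peaks reached 4000 bp, against 1194 in scr. The number of reads of these libraries is not given in the sources used here, and a peak caller finds narrower peaks at lower depth or enrichment. Less mark on the chromatin and a shallower or less enriched library cannot be told apart in these lists.

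**Figure D1:**
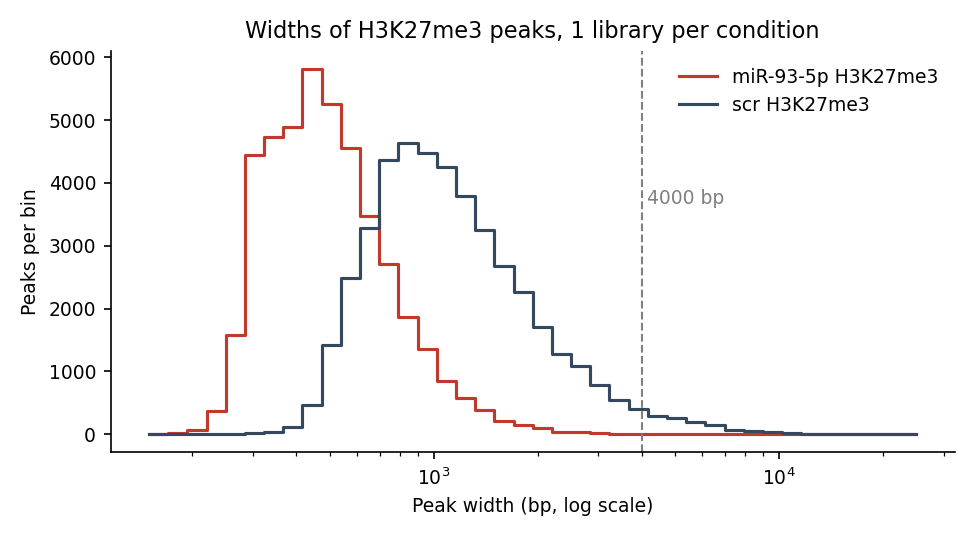
Number of H3K27me3 peaks (vertical axis) by peak width in bp on a log axis, for the miR-93-5p library and the scr library, with a dashed line at the 4000 bp limit of wide domains. The miR-93-5p curve lies to the left, with a median of 473 bp against 1049 bp in scr, and 7 of its peaks against 1194 scr peaks reach the limit.

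Inside the domains the number of miR-93-5p peaks varied widely. None lay in 87 domains, 1 in 196, 2 in 311, 3 in 237, 4 in 152, 5 in 75 and 6 in 38, and 23 domains held 7 or more, up to 14. Thus 836 domains (74.7%) held several peaks where scr had 1. The mean was 2.62 peaks per domain. In the 1032 domains with a peak, the covered share ran from 1.5% to 93.1%, with a median of 38.4% and quartiles of 23.6% and 54.0%. The largest single piece had a median length of 998 bp, 17.9% of the width of its domain, and the longest stretch without a peak had a median of 1958 bp. At least 50% of the width was covered in 326 domains (29.1%), and at least 75% in 58 (5.18%).

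**Figure D2:**
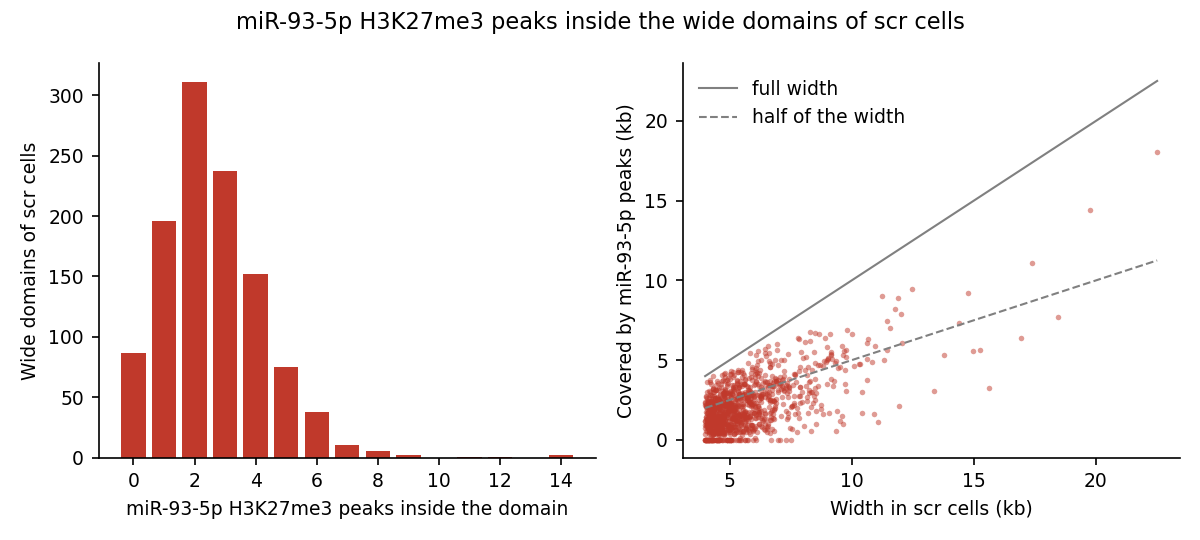
Left, number of wide domains (vertical axis) by the number of miR-93-5p H3K27me3 peaks inside. Right, length covered by miR-93-5p peaks in kb against the width in scr cells in kb, 1 point per domain, with a solid line for the full width and a dashed one for 50% of it. Most domains held 1 to 4 pieces, and 326 of 1119 points lie on or above the dashed line.

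The pieces were larger and higher in score than the rest of the miR-93-5p list. The 2925 miR-93-5p peaks that touched a wide domain, 6.72% of the list, had a median width of 723 bp, against 462 bp for the others, and a median score of 86.34, against 64.27. Of 178 miR-93-5p peaks of at least 2000 bp, 105 (59.0%) touched a wide domain. Of the 2925 peaks, 2735 lay wholly inside one. The places with the broadest mark in scr cells therefore held most of the broad miR-93-5p peaks as well.

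Wider domains were covered more fully. Peaks of miR-93-5p covered 32.9% of the length of domains of 4000 to under 5000 bp, 36.5% at 5000 to under 6000 bp, 41.0% at 6000 to under 8000 bp, 44.5% at 8000 to under 10000 bp and 49.4% from 10000 bp up. In narrower scr peaks the covered share was 11.5% under 1000 bp, 17.2% at 1000 to under 2000 bp, 23.8% at 2000 to under 3000 bp and 29.0% at 3000 to under 4000 bp. The domains thus continued a gradient that ran through the whole scr list, with no step at the limit. The scr score ran along with width. Among 196 narrower scr peaks whose score was at or above the median of the wide domains, 39.2% of the length was covered, against 42.5% in the 560 wide domains with such a score and 33.1% in the 559 with a lower one.

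Along the domains the miR-93-5p peaks lay toward the middle. They covered 19.2% of the first twentieth and 19.8% of the last twentieth of the width, and 39.3% to 44.1% of the 10 bins in the middle. In flanks of the same size on each side, miR-93-5p peaks covered 9.52% to 22.9% per bin and other scr H3K27me3 peaks 23.9% to 58.0%. Taken over all domains together, the flanks were thus partly marked in scr cells too. How many domains had a marked flank was not counted. The dip of scr coverage just outside each border comes with the definition of a peak, since no other scr peak can touch it. The miR-93-5p peaks were called separately, and the cause of their lower coverage at the borders was not tested.

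**Figure D3:**
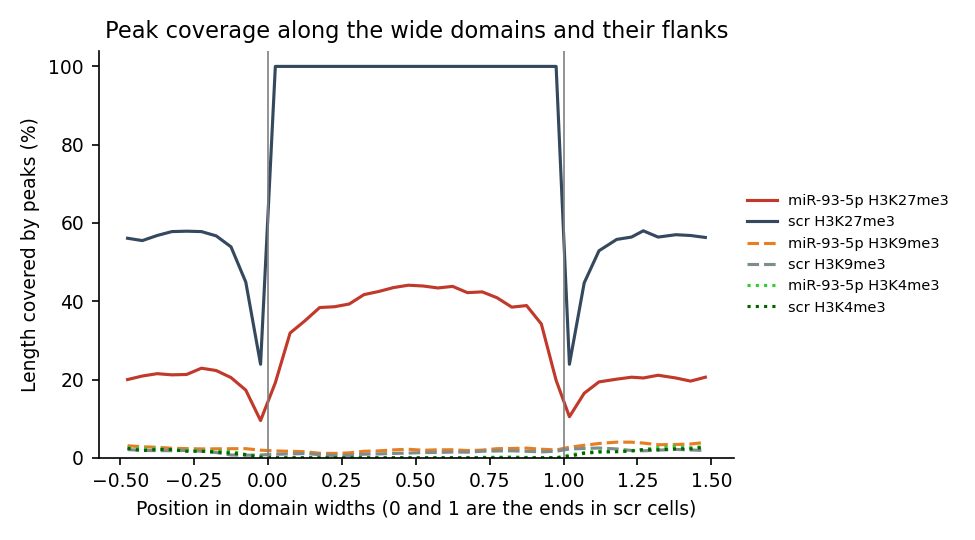
Share of length covered by peaks in percent (vertical axis) by position along the wide domains, with the domain ends in scr cells at 0 and 1 and flanks of the same total width. The scr H3K27me3 line is 100% inside by definition, the miR-93-5p H3K27me3 line is highest in the middle at 44.1%, and the H3K9me3 and H3K4me3 lines stay near the bottom.

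The widest domain covered part of Elfn2, which encodes a leucine-rich repeat membrane protein of neurons, at chr15:78505761-78528271. In miR-93-5p cells 14 peaks covered 18065 bp of its 22511 bp, or 80.2%, with no gap over 1159 bp. The second, at chr15:78460666-78480432 between Cyth4 and Elfn2, was 19767 bp wide and held 14 miR-93-5p peaks over 14415 bp, or 72.9%. Both stayed marked over most of their width, yet neither was called as 1 peak.

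The other domains among the 10 widest were covered less evenly. In Rhpn1 the domain of 17366 bp held 12 miR-93-5p peaks over 63.9% of its width. In Col17a1, a collagen of hemidesmosomes, the domain of 18440 bp held 8 peaks over 41.8%. The domain of 16947 bp in Srcin1, an inhibitor of Src kinase, held 4 peaks over 37.7%, and that of 15251 bp in Scube3, a secreted and cell-surface glycoprotein, 4 peaks over 36.9%. In Ms4a10, a gene of the tetraspanning MS4A family, 7 peaks covered 50.9% of 14411 bp. Of the remaining 3, which touched no listed gene, the one near Dagla held 9 peaks over 62.2% of 14769 bp, the one near Calcoco1 held 5 over 37.4% of 14967 bp, and the one at chr8:123676450-123692070 held 5 over 20.7% of 15621 bp. The last had the lowest scr score of all wide domains, 54.86. The covered share thus ran from 20.7% to 80.2% among the 10 widest domains, which ran from 14411 to 22511 bp.

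Some domains were kept nearly whole. At chr17:23970375-23974703, a single miR-93-5p peak of 4030 bp filled 93.1% of a domain of 4329 bp over the serine protease genes Prss33 and Prss41. At chr19:46741543-46747714, in Cyp17a1, a cytochrome P450 of steroid hormone synthesis, 2 peaks covered 90.3% of 6172 bp, and 1 of them, at 4929 bp, was the widest of the miR-93-5p list. The domain in Pkd2l1, a polycystin-family channel, had 89.6% covered by 7 peaks, and 1 of the domains in the transporter gene Abca17 had 89.2% covered by 3. Domains near Ppara, Kcnj12 and Ermp1 had 92.8%, 88.4% and 87.9% covered. The domain near Ermp1 also had the highest scr score, 2442.48.

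The 87 domains with no miR-93-5p peak were smaller and had lower scores in scr than those with one. Their median width was 4496 bp and their median score 311.63, against 5277 bp and 461.805. The widest was in Prcd, a gene of photoreceptor discs, at chr11:116518708-116526236 and 7529 bp. Others among the widest were near Calcoco1 (7084 bp), in Ptk7, a receptor of planar cell polarity (6983 bp), in Tmem119, known from microglia and bone (6716 bp), in the cardiac splicing factor gene Rbm20 (6097 bp) and in the Ras GTPase-activating gene Rasal1 (5963 bp). No domain of 8000 bp or more lacked a miR-93-5p peak, although with 76 domains from 8000 to under 10000 bp the interval for the share with a peak still starts at 95.3%.

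The same rule applied to the miR-93-5p peaks as called gave 7 domains. All 7 miR-93-5p H3K27me3 peaks of at least 4000 bp were free of miR-93-5p H3K4me3 peaks, and 5 of them touched a wide domain of scr cells. These 5 lay in Dnah17, an axonemal dynein gene (4232 bp), in Elfn2 (4094 bp), at Prss33 (4030 bp), 2019 bp from Tlx1, a homeobox gene (4086 bp), and in Cyp17a1 (4929 bp). The other 2 lay in Trpm8, a cold-sensing channel gene (4094 bp), and 120078 bp from Arid1b (4015 bp), and the first touched a narrower scr H3K27me3 peak and the second lay inside a wide one that touched H3K4me3. All of the 7 therefore touched H3K27me3 of scr cells. Of all miR-93-5p H3K27me3 peaks, 44.9% touched an scr peak. The count of 7 depended on how peaks were split. When peaks at most 1000 bp apart were joined, 580 miR-93-5p regions and 3676 scr regions reached 4000 bp, before any H3K4me3 exclusion. In 476 wide domains of scr cells, 1 joined miR-93-5p region covered at least 50% of the width. Joined regions include the gaps between their peaks.

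Wide domains clustered on part of the genome. Chromosomes 11, 17, 19, 15, 6, 5 and 8 held 949 of them, or 84.8%, but 50.2% of all scr H3K27me3 peaks and 35.8% of the gene loci used. Chromosomes 17 and 19 had the highest density, with 195 and 145 domains, 7.94% and 7.2% of the scr peaks there. Chromosomes 12, 14 and X had none, and chromosome 4 had 1 among 1166 scr peaks. Peak width ran the same way in both conditions. On chromosomes 17 and 19 the median width of all H3K27me3 peaks was 599 and 662 bp in miR-93-5p and 1406 and 1498 bp in scr cells, and on chromosomes 4, 12, 14 and X it was 316 to 322 bp in miR-93-5p and 670 to 696 bp in scr cells. Chromosomes 4, 12, 14 and X carried 17.0% of gene loci and 15.4% of scr H3K4me3 peaks, but 4.52% of miR-93-5p H3K27me3 peaks, 5.18% of scr H3K27me3 peaks and 6.28% of scr H3K9me3 peaks.

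The covered share also varied by chromosome. It was 42.1% on chromosome 11, 43.0% on 15, 42.0% on 17 and 45.3% on 19, against 24.2% on chromosome 6, 29.2% on 5 and 34.7% on 8. The share of domains with a peak was 83.5% on chromosome 5 and 83.7% on chromosome 6, against 89.7% to 96.3% on the other 5 of these 7 chromosomes.

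**Figure D4:**
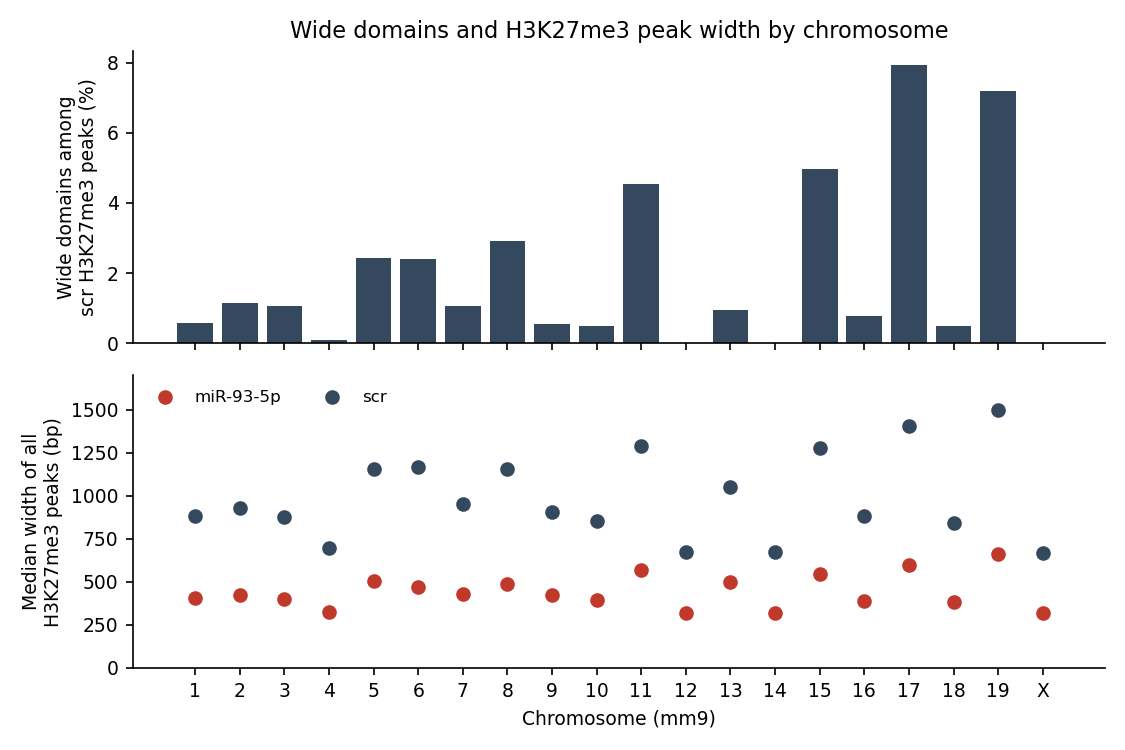
Top, wide domains as a percentage of the scr H3K27me3 peaks of each chromosome. Bottom, median width in bp of all H3K27me3 peaks by chromosome in the miR-93-5p library and the scr library. Chromosomes 17 and 19 stand highest in both panels, and chromosomes 4, 12, 14 and X lowest, with the scr point above the miR-93-5p point throughout.

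Many domains lay side by side. With a gap of at most 50 kb, 537 of the 1119 domains (48.0%) fell into 118 groups of 3 or more, and 372 stood alone. The largest group had 22 domains over 408 kb at chr15:78185540-78593194. Its domains summed to 180 kb, of which 88 miR-93-5p peaks covered 83.0 kb, or 46.2%. The genes in it include several that act in blood cells. Il2rb, the beta chain of the interleukin-2 receptor, held a domain of 9296 bp with 39.5% covered, Rac2, a small GTPase of blood cells, 6060 bp with 34.5% covered, and Cyth4, a cytohesin of leukocytes, 9785 bp with 31.2% covered. Tmprss6, a liver protease that controls hepcidin, held a domain of 5733 bp with 46.1% covered. Sstr3, a somatostatin receptor, held 5249 bp with 52.8% covered, and Mfng, a glycosyltransferase that modifies Notch, 6778 bp with 52.3% covered. In C1qtnf6, a secreted C1q and TNF-related protein, the domain had 13364 bp and 23.0% covered. Elfn2 held 4 domains, and the 3 narrower ones had 12.5%, 25.5% and 24.3% covered, against 80.2% in the widest. Coverage thus varied several-fold between neighbours in 1 gene.

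**Figure D5:**
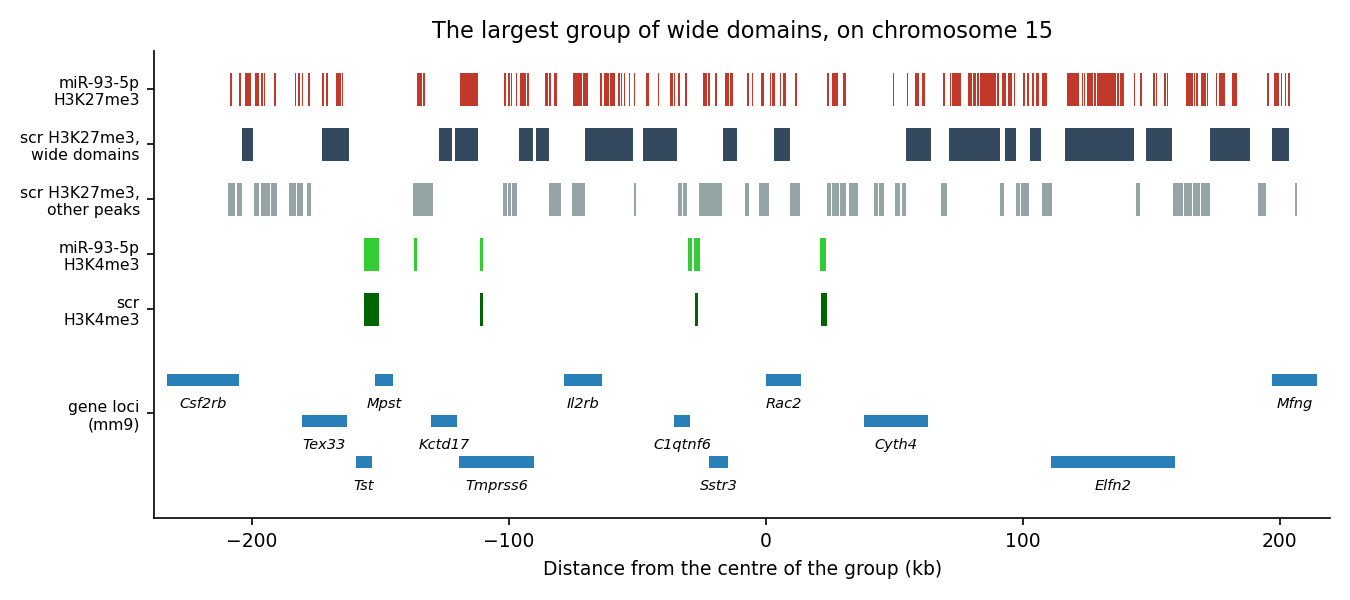
Map of the group of 22 wide domains on chromosome 15, with distance from its centre in kb on the horizontal axis and 1 row each for miR-93-5p H3K27me3 peaks, scr wide domains, other scr H3K27me3 peaks, miR-93-5p and scr H3K4me3 peaks and mm9 gene loci. The 139 miR-93-5p H3K27me3 peaks in view are short and lie densest over the widest domains, in and beside Elfn2.

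The other large groups lay mostly on chromosome 17. A group of 17 domains over 348 kb ran along Zdhhc14, a palmitoyltransferase gene, which alone held 11 domains with 45.4% of their length covered. The widest of these 11 was 11433 bp, with 65.3% covered, and the narrowest, at 4005 bp, held no miR-93-5p peak. A group of 16 domains over 276 kb reached into Dll1, a ligand of Notch receptors, with 34.7% covered. At the start of Dll1 the domain of 4093 bp had 23.6% covered by 1 miR-93-5p peak. A group of 14 domains covered Plg, the plasminogen gene, and Slc22a3, an organic cation transporter, with 52.8% covered, and the 5 domains in Plg had 30.0% to 84.1% covered. In 10 domains over 211 kb lay a family of serine protease genes, Prss21, Prss30, Prss32, Prss33 and Prss41, with Sbp and Sbpl, and 50.8% of the length was covered. Within that family the domain at Prss30 held no miR-93-5p peak, that at Prss21 had 76.5% covered, and that over Prss33 and Prss41 had 93.1%. A group of 12 domains over 148 kb at chr8:125144340-125292323 touched no gene locus of the list used here, and 47.0% of it was covered. These groups, and the genes in them, were singled out by their number of domains after the values were seen.

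Other genes with several domains differed in coverage. The 5 domains in Cpne5, a copine, had 24.8% covered, those in Kcnip1, a potassium channel-interacting protein, 28.5%, and those in Slc4a5, a bicarbonate transporter, 25.3%. The 5 domains in Plg had 57.1% and the 6 in Abca17 44.9%. In all, 107 genes held 2 domains or more.

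About as many domains lay in genes as outside them. Of the 1119, 606 (54.2%) touched a protein-coding gene locus, 361 lay wholly inside one, and 513 touched none, with a median distance of 16179 bp to the nearest locus in the list. The list of loci is incomplete, so a domain with no gene may lie in a gene that was not used here. The start of a gene was inferred from its mm9 locus and the strand in RefSeq, which 14787 of 18463 loci had. As a check, an scr H3K4me3 peak lay at 51.5% of the inferred starts and at 3.14% of the ends. Only 108 domains (9.65%) held an inferred start. Coverage by miR-93-5p H3K27me3 hardly differed between these classes, at 36.8% of the length of domains with a start, 37.5% in other domains at genes and 39.0% in domains with no gene. At the start itself, a miR-93-5p H3K27me3 peak lay on 49 of the 111 genes (44.1%) with their start in a wide domain, against 213 of 897 (23.7%) in narrower scr peaks. None of the 111 starts carried an H3K4me3 peak in miR-93-5p cells. They were free of scr H3K4me3 by the rule, so this follows in part from the choice.

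The domains touched 445 protein-coding genes, 2.41% of the 18463 used. For a gene with several domains, the lists below give the widest. Others in the same gene could differ, as in Onecut3 (5562 bp, 9.5% covered) and Sox10 (6040 bp, 68.1% covered). Among developmental regulators outside the Hox clusters, 6 of 121 homeobox genes (4.96%) were touched, Onecut3, Uncx, Emx1, Pitx3, Pou5f1 and Prrx2. In Pitx3, a factor of dopamine neurons and lens, 3 miR-93-5p peaks covered 87.0% of 4203 bp, while the domains in Uncx (5330 bp) and Emx1 (4466 bp) held none. In Onecut3, a factor of liver and neural cells, 5 peaks covered 37.6% of 5809 bp. None of 27 Hox genes was touched, although 9 of them (33.3%) carried a narrower or H3K4me3-overlapping scr H3K27me3 peak, where 20.4% of all genes carried an scr H3K27me3 peak of any kind.

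Of the Pax, Sox, Fox, Tbx and Gata factors 5 of 60 (8.33%) were touched. Sox8, a relative of Sox9, lay in a domain of 9743 bp, with 4 miR-93-5p peaks over 45.2% of it. The domain in Sox10, a factor of neural crest, was 6220 bp wide with 44.9% covered, that in Tbx10 7674 bp with 53.2%, and that in Foxd4 4947 bp with 18.6%. Tbx21, the T-bet gene of T cells, was the fifth. Of 44 developmental zinc finger genes 3 (6.82%) were touched. These were Ikzf3, the lymphoid factor Aiolos, with 59.2% of 10680 bp covered, Ovol1, an epithelial factor, with 37.6% of 6642 bp, and Sp7, the bone factor osterix, with 23.8% of 4404 bp. Of 48 basic helix-loop-helix genes, Tcf23 alone was touched, and its domain of 4079 bp held no miR-93-5p peak.

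Ligands and antagonists of the Wnt, BMP, FGF, hedgehog and Notch pathways were touched in 6 of 74 genes (8.11%). Wnt8b had a domain of 9005 bp with 4 miR-93-5p peaks over 55.9% of it, and Wnt11 one of 5622 bp with 32.0% covered. The Notch ligand Dll4 had a domain of 6539 bp with 1 peak over 10.3%, and Chrd, the BMP antagonist chordin, 1 of 5948 bp with 10.0% covered. Dll1 and Wnt9a were the others.

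Ion channels of excitable cells had 11 of 91 genes touched (12.1%). Kcng4, a subunit of voltage-gated potassium channels, had a domain of 10947 bp over its start at chr8:122151554-122162500, and 7 miR-93-5p peaks covered 53.5% of it. Kcnn1, a calcium-activated potassium channel, had one of 9339 bp at chr8:73373612-73382950, in which a single peak of 553 bp was left, 5.9% of the width. These 2 domains lay over starts whose promoters, printed above, held 4 and 13 CG. They were of about the same size in scr cells and had unlike coverage in miR-93-5p cells. A second domain in Kcng4, of 6478 bp, had 20.6% covered by 1 peak. The domain in the calcium channel gene Cacna1a had 35.8% covered and that in the inward rectifier gene Kcnj4 50.7%.

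Neurotransmitter receptors had 6 of 91 genes touched (6.59%), among them 3 NMDA receptor subunits, Grin1, Grin2c and Grin2d. Grin1 had 19.4% of 6309 bp covered and Grin2c 36.7% of 5115 bp. The metabotropic glutamate receptor Grm4 had 40.4% of 6201 bp covered. Of 72 genes of synapse adhesion and axon guidance 4 (5.56%) were touched, with 71.9% of 5866 bp covered in the guidance ligand Slit1, 28.3% of 7550 bp in the neurexin Nrxn2, 31.2% of 4658 bp in the contactin Cntn2 and 15.7% of 4959 bp in the cadherin Cdh22.

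Markers of cell types were seldom touched. Of 35 hepatocyte markers, G6pc, the catalytic subunit of glucose-6-phosphatase, was touched, with 68.1% of 4370 bp covered. Among leukocyte markers Spi1, the myeloid factor PU.1, had 100 bp left of 5422 bp, or 1.8%. Of 13 endothelial markers, Vwf had 26.1% of 6180 bp covered. None of 14 biliary and progenitor markers, 15 mesenchymal markers, 30 tumour suppressor and cell cycle inhibitor genes, 33 Polycomb and H3K27 demethylase genes and 36 genes reported as targets of the microRNA or of its relatives was touched. The share over all genes, 2.41%, comes to about 1 gene in a list of such a size. Among families, 18 of 357 solute carriers (5.04%), 2 of 95 cytochrome P450 genes (2.11%), 2 of 53 keratins (3.77%) and 2 of 351 genes named Zfp (0.57%) were touched, and none of 842 olfactory receptors, 185 vomeronasal receptors and 35 protocadherins. The lists were written with earlier results of these data known, and these counts carry no test.

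Most genes in wide domains had no matched locus in each of the 3 RNA-seq libraries, which does not show that they were silent. A gene was called present when an assembled locus of the library matched it. Of the 445 genes, 16 (3.6%) were present in miR-93-5p, 26 (5.84%) in mutant and 31 (6.97%) in scr cells, against 48.4%, 48.7% and 49.9% of all 18463 genes. Other genes with an scr H3K27me3 peak were present at 8.33%, 9.32% and 11.8% in the same order, and genes with none at 58.8%, 58.8% and 59.8%. Of genes with their start in a wide domain, 4, 6 and 5 of 111 were present in miR-93-5p, mutant and scr cells. Of the 445, Tectb, a gene of the inner ear, was the one present in miR-93-5p and not in scr, at 1.49 FPKM with deposited bounds of 0 to 6.55.

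The genes that dropped out were examined one by one, a step chosen after the values were seen. Of the 31 genes present in scr cells, 16 (51.6%) were not present in miR-93-5p cells, against 6.33% of all genes present in scr. Among other genes with an scr H3K27me3 peak 143 of 390 dropped out, and among genes with none 425 of 8798. Frequent loss was thus not particular to wide domains. The comparisons that follow are with other genes or all genes and were not split by H3K27me3. Low genes are lost more easily. At an scr level of 1 to under 3 FPKM, 10 of 15 genes of wide domains (66.7%) were not matched in miR-93-5p, against 28.2% of other genes, and at 3 to under 10 FPKM 2 of 6 (33.3%), against 4.91%. Some of these unmatched genes were still touched by an assembled locus of another extent, so a stricter count was made of genes that no assembled miR-93-5p locus touched at all. It came to 12 of the 31 (38.7%), against 3.09% of all genes present in scr, and at an scr level of 1 to under 10 FPKM to 10 of 21 (47.6%), against 5.65% of all genes at that level. In the mutant, no assembled locus touched 8 of these 12 either.

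Of the 12, Kctd17 and Rtn4rl1 had the highest scr level. Kctd17, an adaptor of ubiquitin ligases with a role in cilia, lay in the large group on chromosome 15. No assembled locus touched it in miR-93-5p or mutant cells, and it was at 7.95 FPKM (deposited bounds 7.28 to 8.63) in scr cells. Rtn4rl1, a Nogo receptor homolog of neurons, had no locus in miR-93-5p cells and a fragment at 0.46 FPKM in mutant cells, and was at 7.12 FPKM (6.58 to 7.67) in scr cells. Kctd17 held a domain of 9101 bp shared with Tmprss6, of which 72.8% was covered in miR-93-5p cells, and another of 4889 bp with no miR-93-5p peak. The scr values of the other 10 were low. Nes and Prph, the genes of the intermediate filament proteins nestin and peripherin, were at 2.52 and 2.11 FPKM. C1qtnf6 and Cyth4, of the same group as Kctd17, were at 2.24 and 1.35 FPKM, and C1qtnf6 was at 0.666 FPKM in mutant cells. The axonemal genes Drc3 and Ttc25 were at 1.92 and 1.3 FPKM, Fam117a at 2.08, Tmem220 at 1.35, the Wnt pathway factor gene Tcf7l1 at 0.942 and the vitamin D receptor gene Vdr at 0.757 FPKM. Of the 8 with a known strand, Drc3, Fam117a and Tcf7l1 had an scr H3K4me3 peak at their start, and Nes alone had its start inside a wide domain. Among cell type markers matched in miR-93-5p and scr cells, Csf1r, Hnf4a, Krt8 and Krt18 were also lower in miR-93-5p, while Spp1 and Sox9 were higher. The part of a shift in cell types in these values was not tested. A gene with no assembled locus is below what the assembly could build and is not shown to be at 0.

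Genes of wide domains present in all 3 libraries were too few for a count of 0 to set them apart. Of 15 that could be compared, at a mean of at least 1 FPKM, 0 were higher and 0 were lower in the miR-93-5p library than in the mutant and scr libraries alike, where 0.665% and 0.879% of all 8420 genes were. Against scr alone 1 was higher and 1 lower, where 2.97% and 3.86% of all genes were. Dusp3, a dual-specificity phosphatase gene whose start lay in a domain of high scr score, stood at 14.3 FPKM, with bounds of 13.3 to 15.2, in miR-93-5p cells, 15.4 (14.6 to 16.3) in mutant and 6.63 (6.07 to 7.19) in scr cells, a log2 ratio of miR-93-5p over scr of 1.00 on the log2(FPKM + 1) scale. Llgl2, a gene of epithelial polarity, stood at 12.6 FPKM, with bounds of 11.7 to 13.4, in miR-93-5p cells, 21.0 (19.8 to 22.2) in mutant and 27.6 (26.0 to 29.2) in scr cells, a log2 ratio of -1.08. The mutant lay beside miR-93-5p for Dusp3 and nearer scr for Llgl2. The domain at Dusp3 kept 4 miR-93-5p peaks over 53.1% of 6916 bp, and the one in Llgl2, of 5029 bp, held none. The median log2 ratio of the 15 genes was 0.00161, against 0.0305 over all genes compared.

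The 5 genes of highest scr level were expressed with a wide domain in the gene locus. Nt5c2, a nucleotidase gene, was at 36.0 FPKM in miR-93-5p, 55.5 in mutant and 67.8 in scr cells. After Llgl2 came Dgkz, a diacylglycerol kinase gene, at 22.3, 20.9 and 23.4 FPKM in the same order, Tcf20, a transcriptional co-regulator gene, at 11.3, 11.9 and 17.4 FPKM, and Dab2ip, a Ras GTPase-activating gene, at 12.1, 9.65 and 12.1 FPKM. All 5 carried an scr H3K4me3 peak elsewhere in the locus. Such a peak was found in 100 of the 445 genes (22.5%), against 56.3% of all genes. The wide domains of Dgkz and Tcf20 lay over the inferred start, those of Nt5c2 and Dab2ip elsewhere in the gene, and the strand of Llgl2 was not in the table used.

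In the pulldown 3 genes of wide domains could be compared. Of these, 0 were at least 2-fold higher in the miR-93-5p library than in both others, where 1.64% of all 5246 genes were. Lynx1, a modulator of nicotinic receptors, was the 1 that was lower than in both, where 11.9% of all genes were. It was at 1.1 FPKM in the miR-93-5p, 3.77 in the mutant and 3.36 in the scr pulldown, and its miR-93-5p bounds of 0 to 5.13 include the other values. Tcf20 was at 20.5 FPKM in the miR-93-5p, 6.42 in the mutant and 10.5 in the scr pulldown. It was thus higher than in both, but its log2 ratio over scr of 0.9 was under the 2-fold limit. Dusp3 was at 3.51, 3.01 and 8.34 FPKM in the same order.

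The domains were chosen to be free of H3K4me3 in scr cells, so a low share with H3K4me3 in miR-93-5p cells follows in part from the choice and is given as a description. An H3K4me3 peak of miR-93-5p cells touched 8 of the 1119 domains (0.715%), against 1.51% of all scr H3K27me3 peaks and 93.3% of the 75 wide peaks that were set apart for having H3K4me3 in scr. Among the widest of the 8 were those near Mpc1 (8863 bp) and Noto (8237 bp), in the ciliary gene Dnaaf1 (6028 bp) and in Slc2a4, the insulin-responsive glucose transporter (5767 bp). These 4 still held 3 to 5 miR-93-5p H3K27me3 peaks, over 38.0% to 55.9% of their width.

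H3K9me3 peaks touched 84 domains (7.51%) in miR-93-5p and 57 (5.09%) in scr cells, 46 of them in both, where 3.14% and 1.86% of all scr H3K27me3 peaks were touched. Per length the domains did not stand out. H3K9me3 peaks covered 1.88% of them in miR-93-5p and 1.25% in scr cells, against 1.89% and 1.07% of all scr H3K27me3 peaks. The miR-93-5p H3K9me3 list was also the longer one, with 25879 peaks against 15888 in scr. Among the widest domains with scr H3K9me3 were those near Calcoco1 (14967 bp), in Ms4a10 (14411 bp), in Abca17 (9718 bp) and near Rnft2 (9418 bp). Each of these 4 held 1 H3K9me3 peak in both conditions, with 19.3% to 50.9% of its width covered by miR-93-5p H3K27me3.

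The 75 wide scr peaks with H3K4me3 were the class most like the wide domains. A miR-93-5p H3K27me3 peak lay in 63 of them (84.0%, interval 73.7% to 91.4%) and covered 35.0% of their length, against 92.2% and 38.1% for the wide domains. Regions of 1 library are not replicates, and the difference between these classes was not tested.

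The mRNAs of the enzymes behind the mark differed by less than 2-fold between the libraries. For Suz12 and Kdm6b the deposited bounds in miR-93-5p lay above those in scr. These bounds hold no replicate error, and the share of all genes with such separate bounds was not counted. Ezh2 stood at 49.7 FPKM, with bounds of 47.3 to 52.0, in miR-93-5p cells, 50.8 (48.7 to 52.9) in mutant and 54.1 (51.7 to 56.6) in scr cells. Eed was at 19.8, 20.4 and 19.4 FPKM in the same order. Suz12 stood at 54.6 FPKM, with bounds of 51.9 to 57.3, in miR-93-5p cells, 51.0 (48.6 to 53.4) in mutant and 44.0 (42.0 to 46.0) in scr cells, so that the bounds in miR-93-5p overlapped those in mutant and not those in scr. Of the H3K27 demethylases, Kdm6a was at 10.1, 9.89 and 9.94 FPKM. Kdm6b stood at 7.74 FPKM, with bounds of 7.3 to 8.18, in miR-93-5p cells, 5.96 (5.62 to 6.31) in mutant and 5.98 (5.54 to 6.42) in scr cells, so that its deposited bounds in miR-93-5p did not overlap those of the other 2 libraries. Whether these levels bear on the domains was not tested.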

How the data were processed

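The authors deposited 1 peak list per histone mark and condition, each called separately, with a score per peak from 50 upward whose meaning is not given in the file headers. They also deposited FPKM values per assembled locus with lower and upper bounds, per the file headers. Bowtie, MACS, TopHat2, Cufflinks, Cuffdiff and CASAVA 1.4 and the build mm9 were used, per the submitters' processing notes, without their settings. The 2 input samples were not analysed here. Coordinates are 1-based.

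Peaks were intersected with a minimum of 1 bp in Python 3.11.15 with pandas 2.3.3, numpy 2.4.6 and scipy 1.17.1, which gave exact Clopper-Pearson intervals that cover counting error only, and plotted with matplotlib 3.10.9. The overlap steps were tested on simulated data. Gene loci were the 18463 protein-coding mm9 loci that the pulldown files list at FPKM 0, named through identifier tables. Strand came from RefSeq by symbol, a choice made after the files were seen. RNA-seq loci took a gene's name when each was the other's best overlap with at least 0.5 of their joint length shared. Pulldown loci were matched in the same way to GRCm38.p6 genes, whose coordinates they follow. Ratios are log2 of FPKM with a pseudocount of 1, for a mean of at least 1 FPKM and a 2-fold limit. Read depth of the immunoprecipitation libraries is not given in the sources used here.

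The members and gene lists were chosen with earlier results of these data known. Domains named were the 10 widest, the 8 with most miR-93-5p peaks, largest covered share, highest scr score, or widest with none, those at the width limit, up to 4 genes per list, up to 5 with other marks, the 5 genes of highest scr FPKM and those changed 2-fold. Domains of the large groups and the genes that dropped out were added after their values were seen. Alternatives were the width limit, the H3K4me3 exclusion, joining of peaks, minimum score or width of miR-93-5p peaks, the overlap rules, the pseudocount and implied fragments. A few items that the rule would name are not reported here.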

Additional observations from a re-analysis of the deposited data

How the results depend on the processing

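The number of wide domains followed the width limit. It was 2331 at 3000 bp, 633 at 5000 bp, 113 at 8000 bp and 3454 when scr peaks at most 1000 bp apart were joined first. The share with a miR-93-5p peak was 84.8%, 96.4% and 100.0% at the 3 width limits, and the covered share 34.7%, 40.8% and 46.5%. With miR-93-5p peaks of a score of at least 100 alone the 2 shares were 61.2% and 20.9%, and with those of at least 1000 bp 47.0% and 17.3%. The covered share was 38.0% when a peak had to lie inside by its midpoint, or by at least 0.5 of its length, or when miR-93-5p H3K4me3 was excluded too, and 37.9% with no H3K4me3 exclusion. In alternatives chosen after seeing the data, joining scr peaks gave 86.1% and 25.6%, and joining miR-93-5p peaks gave a covered share of 46.3%. With gene loci extended by 5000 bp 62.9% of domains were in a gene, and with at least 0.5 of the domain inside, 46.9%.

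With a pseudocount of 0.1, 2 genes were higher and 2 lower than in scr, and likewise with implied fragments, the fragment number computed from the deposited bounds as if they were counting error. There the log2 ratio was 0.71 for Dusp3 and -0.49 for Llgl2. With at least 0.9 of the joint length shared, 7 genes could be compared and 0 were higher than in scr. The cause of these shifts was not tested. No paired analysis was possible because each group had 1 library, and for the same reason no replicate could be left out. Peak width depends on read depth and enrichment, which are not given in the sources used here, and this limits every statement on how much of a domain remained.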
